A study of Mus musculus with 12 samples.

Results

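The 10 genes described here encode regulators of G protein signalling (RGS proteins): *Rgs1*, *Rgs2*, *Rgs3*, *Rgs4*, *Rgs5*, *Rgs10*, *Rgs12*, *Rgs14*, *Rgs16* and *Rgs19*. They were taken by symbol from the 55401 genes of whole-kidney RNA-Seq, and all 10 were found, with the same identifier version in the GENCODE M21 annotation (GRCm38, the mm10 build). Kidneys came from male C57BL6 mice aged 8 weeks, 1 library per mouse. The 6 vehicle mice received 15% 2-Hydroxypropyl-beta-cyclodextrin. The 6 SK-124 mice received SK-124, an inhibitor of the salt-inducible kinases SIK2 and SIK3, at 40 mg/kg in the same 15% vehicle. Each mouse was given 1 intraperitoneal injection, no engineered allele is named in the labels, and the time from injection to kidney collection for these libraries is not given in the sources used here. Whole kidney mixes tubule, vessel, stromal and immune cells, and in such samples fewer cells of a type and less RNA per cell cannot be told apart.

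Hormone receptors of the G protein-coupled class switch on G proteins by loading the alpha subunit with GTP, and RGS proteins speed up the hydrolysis of that GTP and so end the signal. Most act on alpha subunits of the Gi and Gq classes. In the kidney these classes carry signals for vessel tone, filtration and transport of salt and water, while parathyroid hormone and vasopressin act largely through Gs, cyclic AMP and protein kinase A, a pathway that inhibits SIKs. The question here was how the RNA of the RGS genes differed between kidneys with and without the SIK inhibitor.

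Of the 10 genes, *Rgs2* was higher and *Rgs3* and *Rgs12* were lower in SK-124 mice, and for each of the 3 no SK-124 mouse overlapped with any vehicle mouse. *Rgs2* rose 2.86-fold, *Rgs3* fell to 39.1% and *Rgs12* to 72.3% of the mean vehicle level. Levels are in CPM, the estimated reads of a gene scaled to library size and composition (TMM). Differences were tested by the quasi-likelihood method of edgeR, and FDR is the Benjamini-Hochberg adjusted p over all 14159 genes that passed edgeR's filter on low counts. The filter let 7 of the 10 genes through, and 3 of these 7 had an FDR under 0.05, 1 higher and 2 lower. Among all genes tested, 24.4% had an FDR under 0.05, 10.8% higher and 13.5% lower, while 6.32% were higher and 6.65% lower without overlap between the groups. The share of the RGS genes was not tested against this background. *Rgs5*, *Rgs4*, *Rgs10* and *Rgs19* did not pass the test, and *Rgs1*, *Rgs14* and *Rgs16* had too few reads for the filter. The median log2 fold change was -0.15 over the 7 genes and -0.0050 over all genes tested.

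**Figure D1:**
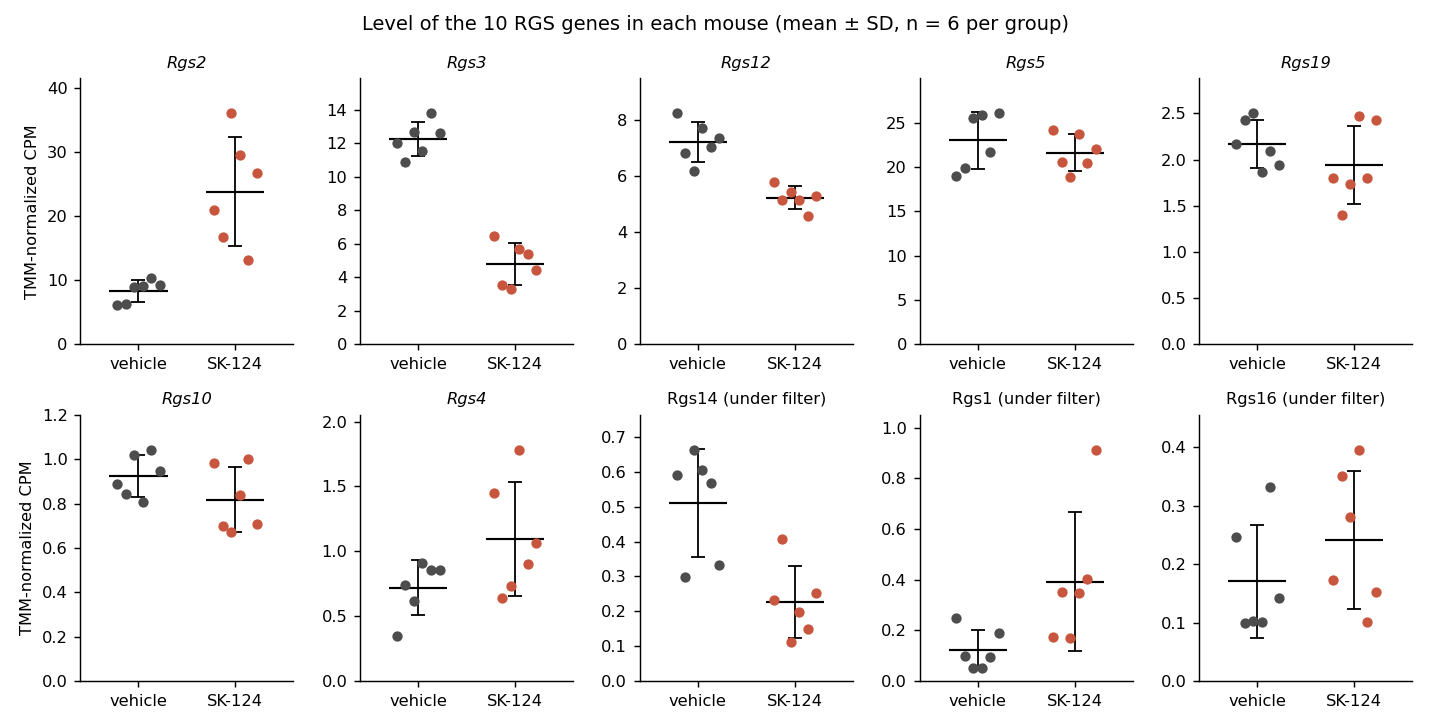
TMM-normalized CPM of each RGS gene (y axis, from 0, its own scale in each panel) in the 6 vehicle mice (grey) and the 6 SK-124 mice (red), with the mean and SD as black bars. The groups are separate for *Rgs2*, *Rgs3* and *Rgs12* and overlap for the other 7 genes, 3 of which are marked as under the filter.

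Libraries held 19244227 to 19771802 estimated reads, so depth differed little between mice. The 10 genes with the most reads took 38.6% to 40.2% of the reads in SK-124 mice 4 to 6, 39.9% to 43.2% in vehicle mice and 44.4% to 46.8% in SK-124 mice 1 to 3. The labels give no batch for this split. Kidney markers were present in every mouse. The 7 proximal tubule markers summed to 7901 to 8796 CPM in vehicle and 7251 to 9154 CPM in SK-124 mice. The 5 podocyte markers summed to 215.6 to 337.0 and 231.1 to 281.0 CPM. A further 7 nephron markers summed to 3167 to 4298 and 4201 to 4630 CPM, with little overlap. Higher and lower at an FDR under 0.05 (edgeR) were 0 and 1 proximal tubule, 1 and 0 podocyte and 1 and 1 further nephron markers. Among all genes tested the shares were 10.8% and 13.5%. The part of these cells in the levels of the RGS genes was not tested. Because of the split in read share, fold changes of *Rgs2*, *Rgs3* and *Rgs12* are also given for each set of 3 SK-124 mice against all vehicle mice. Both sets share the 6 vehicle mice, so they are not independent. For these 3 genes no SK-124 mouse overlapped with a vehicle mouse, so the direction in each set was fixed in advance.

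*Rgs2* (ENSMUSG00000026360.9, chr1:143999338-144004161, minus strand) encodes a small RGS protein of the R4 family that acts mainly on Gq, and its RNA is known as an early product of cyclic AMP signalling in many cells. The 250 bases before its start in RefSeq (GRCm38.p6, chr1:144004150-144004399, minus strand) are shown because *Rgs2* was the RGS gene that rose. They are followed by those of *Rgs4* (chr1:169747643-169747892, minus strand), the only other RGS gene with 2 matches to the motif, and of the first start of *Rgs3* (chr4:62559597-62559846, plus strand), the gene that fell most. Capitals mark TGACG on either strand, the short form of the cyclic AMP response element TGACGTCA, which the transcription factor CREB binds.
Rgs2: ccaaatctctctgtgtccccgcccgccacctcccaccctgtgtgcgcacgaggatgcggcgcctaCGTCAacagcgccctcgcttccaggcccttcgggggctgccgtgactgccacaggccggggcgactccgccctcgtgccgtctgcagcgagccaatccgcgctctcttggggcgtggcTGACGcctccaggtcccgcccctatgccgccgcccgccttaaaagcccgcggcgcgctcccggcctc
Rgs4: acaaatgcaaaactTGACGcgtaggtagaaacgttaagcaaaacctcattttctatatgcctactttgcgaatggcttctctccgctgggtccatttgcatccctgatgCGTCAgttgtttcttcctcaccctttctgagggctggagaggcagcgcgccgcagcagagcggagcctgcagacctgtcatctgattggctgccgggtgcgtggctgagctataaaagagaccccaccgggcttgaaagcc
Rgs3: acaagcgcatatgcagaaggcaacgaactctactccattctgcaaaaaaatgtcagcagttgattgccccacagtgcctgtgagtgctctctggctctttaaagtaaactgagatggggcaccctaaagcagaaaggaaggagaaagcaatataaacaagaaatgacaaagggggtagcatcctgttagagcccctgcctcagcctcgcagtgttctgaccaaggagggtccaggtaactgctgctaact

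In these windows the matches began 185 and 67 bases before the start of *Rgs2* and 236 and 141 bases before that of *Rgs4*. RefSeq held 12 windows for 8 of the 10 genes, and TGACG was in 3 of them, the third being a second start of *Rgs12*, 82 bases before it. Among all 32851 windows of the same length, 17.8% held TGACG and 3.90% held 2 or more. The full TGACGTCA was in 1.55% of all windows and in 0 of the 12. The genes with a match differed in direction: *Rgs2* rose, *Rgs12* fell and *Rgs4* did not pass the test. A match of letters is not a bound site, and binding was not measured in these libraries.

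Among vehicle mice *Rgs2* was at 6.07 CPM in the lowest, 9.01 at the median and 10.4 in the highest. In SK-124 mice the lowest, median and highest were 13.1, 23.9 and 36.1 CPM. Every SK-124 mouse was above every vehicle mouse, and the SK-124 mice were the more spread out, with an SD of 8.56 against 1.77 CPM (n = 6 each). The log2 fold change was 1.52 ± 0.21 (SE, edgeR, FDR = 3.8e-05). An exact two-sided permutation test on log2(CPM + 0.5) gave p = 0.00216, the smallest that 6 against 6 can give. Groups without overlap always give this p, so for *Rgs2*, *Rgs3* and *Rgs12* it only restates the separation. The log2 fold change was 1.56 with SK-124 mice 1 to 3 alone and 1.48 with mice 4 to 6 alone.

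*Rgs3* (ENSMUSG00000059810.18, chr4:62559847-62704001, plus strand) encodes another R4 protein, which acts on Gi and Gq subunits and has both long and short forms. It was at 10.9 CPM in the lowest vehicle mouse, 12.3 at the median and 13.8 in the highest. The SK-124 mice had 3.31, 4.88 and 6.49 CPM at the lowest, median and highest. The highest SK-124 mouse was thus below the lowest vehicle mouse. *Rgs3* fell by 1.35 ± 0.13 on the log2 scale (SE, edgeR, FDR = 7.5e-07; exact permutation p = 0.00216). The log2 fold change of *Rgs3* was -1.47 with SK-124 mice 1 to 3 alone and -1.24 with mice 4 to 6 alone. *Rgs3* was the only one of the 10 genes with reads that RSEM could not place with certainty. The posterior SD of its count was at most 1.72 reads, against at least 58.8 reads in any mouse.

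*Rgs12* (ENSMUSG00000029101.16, chr5:34949445-35039644, plus strand) encodes a large scaffold of the R12 family that joins its RGS domain to PDZ, Ras-binding and GoLoco domains. The vehicle mice had 6.18, 7.18 and 8.25 CPM at the lowest, median and highest, and the SK-124 mice had 4.56, 5.21 and 5.79 CPM. The groups did not overlap, with the lowest vehicle mouse close above the highest SK-124 mouse. *Rgs12* fell by 0.47 ± 0.09 on the log2 scale (SE, edgeR, FDR = 0.00076; exact permutation p = 0.00216). With SK-124 mice 1 to 3 alone the log2 fold change was -0.40 (edgeR, FDR = 0.025) and with mice 4 to 6 alone -0.53 (edgeR, FDR = 0.0057).

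*Rgs12* and *Rgs2* also gave a view of transcript use, because RSEM reports for each mouse a gene length averaged over its transcripts by their abundance. A changed length means a changed mix of long and short transcripts as RSEM estimated it. *Rgs12*, with 18 annotated transcripts in the files, had lengths of 2444 to 3579 bases (median 2825) in vehicle mice and 2869 to 4229 bases (median 3952) in SK-124 mice. The groups overlapped, and the log2 length difference of 0.34 ± 0.12 (SE) did not pass limma's test over 12054 genes (FDR = 0.71, exact permutation p = 0.0216 unadjusted). For *Rgs2* the length difference was -0.16 ± 0.07 on the log2 scale (SE, limma, FDR = 0.87; exact permutation p = 0.0498 unadjusted). For *Rgs3* it was -0.0043 ± 0.059 (SE, limma, FDR = 1.0). None of the 6 RGS genes that were over the filter on low counts and had a varying length passed, and in all genes 0.0415% did. Of the 6, only *Rgs12* had an unadjusted p under 0.05 in limma. The length enters TPM, the authors' level of a gene scaled per length and library. In limma *Rgs12* fell by 0.63 on log2(TPM + 1) (FDR = 0.00014) and by 0.93 on log2(TPM + 0.1) (FDR = 0.00015), fits in which the median of all genes was at -0.11 and -0.14. The part of the length in these values was not tested.

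TPM also allowed the levels of different RGS genes to be compared. In vehicle mice *Rgs3* had the highest mean, 7.11 ± 0.997 TPM (SD, n = 6), followed by *Rgs5* with 5.43 ± 0.78, *Rgs2* with 4.04 ± 1.17, *Rgs12* with 2.52 ± 0.46, *Rgs19* with 2.27 ± 0.38 and *Rgs10* with 1.40 ± 0.26 TPM. *Rgs14* (0.262), *Rgs4* (0.260), *Rgs1* (0.102) and *Rgs16* (0.075) were far below. Neighbours in this order overlapped in range, except that *Rgs19* was above *Rgs10* and *Rgs10* above *Rgs14* without overlap.

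In SK-124 mice the order at the top of the 10 was different. *Rgs2* came first with 11.5 ± 4.09 TPM (SD, n = 6), then *Rgs5* with 4.63 ± 0.70 and *Rgs3* with 2.54 ± 0.82 TPM, and these 3 did not overlap with each other. *Rgs3* overlapped with *Rgs19* at 2.03 ± 0.98 TPM, the next below. *Rgs12* (1.26 ± 0.17 TPM) and *Rgs10* (1.25 ± 0.20 TPM) overlapped, and both were above *Rgs4* (0.338 TPM). *Rgs2* had less RNA than *Rgs3* in 6 of 6 vehicle mice, with a TPM ratio of 0.370 to 0.719. It had more than *Rgs3* in 6 of 6 SK-124 mice, with a ratio of 2.25 to 10.2. *Rgs2* made up 12.1% to 21.3% of the summed TPM of the 10 genes in vehicle mice and 36.5% to 62.7% in SK-124 mice. The sum itself overlapped, at 19.4 to 27.6 TPM in vehicle and 16.0 to 28.7 TPM in SK-124 mice.

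**Figure D2:**
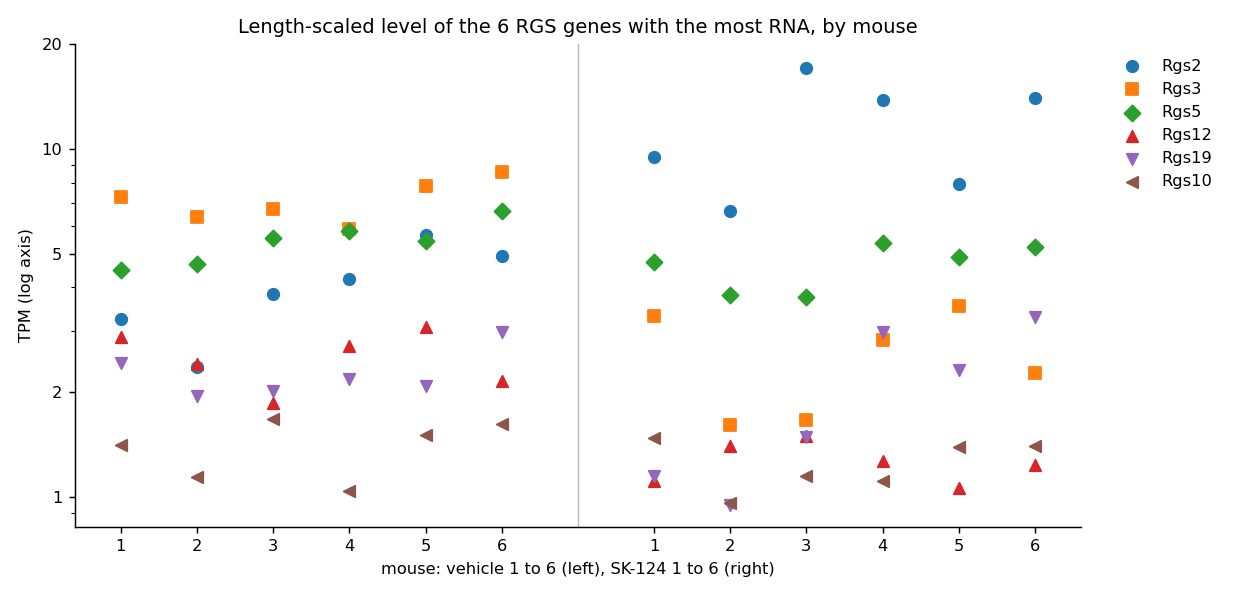
TPM (y axis, log scale) of the 6 genes with the highest mean TPM among the 10 RGS genes described here. There is 1 column of points per mouse, vehicle mice 1 to 6 on the left and SK-124 mice 1 to 6 on the right. *Rgs3* (orange squares) lies above *Rgs2* (blue circles) in each of the 6 vehicle mice and below it in each of the 6 SK-124 mice.

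The other R4 genes that passed the filter were not called. *Rgs5* (ENSMUSG00000026678.10, chr1:169655501-169695813, plus strand), which marks pericytes and vascular smooth muscle, was at 19.0, 23.6 and 26.1 CPM (lowest, median and highest vehicle mouse) and at 18.9, 21.3 and 24.1 CPM in SK-124 mice. Its groups overlapped almost fully, with a log2 fold change of -0.09 ± 0.09 (SE, edgeR, FDR = 0.52). *Rgs4* (ENSMUSG00000038530.11, chr1:169741477-169747642, minus strand) lies 45.7 kb from *Rgs5* on the same chromosome, and its protein acts on Gi and Gq subunits. *Rgs4* was at 0.346 to 0.907 CPM (median 0.798) in vehicle mice and 0.643 to 1.78 CPM (median 0.983) in SK-124 mice. Only 3 SK-124 mice exceeded the highest vehicle mouse, and the log2 fold change of 0.61 ± 0.27 (SE) did not pass (edgeR, FDR = 0.12; exact permutation p = 0.0974), although its unadjusted p in edgeR was 0.040.

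Vascular cell markers were read beside *Rgs5* and *Rgs4*. Of 10 mural cell markers, all tested, 3 were higher and 3 lower at an FDR under 0.05 (edgeR). Their summed level was 109.8 to 162.9 CPM in vehicle and 124.3 to 178.9 CPM in SK-124 mice, and none was at 0. Of the 10 endothelial markers, 0 were higher and 4 lower (1 higher at an unadjusted p under 0.05, and 0 with DESeq2), at 419.1 to 555.6 against 329.9 to 512.0 CPM summed. Over all genes tested with edgeR, 10.8% were higher and 13.5% lower, and the marker lists were not tested against these shares. The part of mural and endothelial cells in the levels of *Rgs5*, *Rgs4*, *Rgs2* and *Rgs3* was not tested.

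*Rgs10* and *Rgs19* were expressed at a low level. *Rgs10* (ENSMUSG00000030844.11, chr7:128373621-128418758, minus strand) encodes the smallest R12 protein, known from myeloid cells. It was at 0.807 to 1.04 CPM (median 0.918) in vehicle and 0.672 to 1.0 CPM (median 0.776) in SK-124 mice, and the ranges overlapped. The log2 fold change was -0.17 ± 0.17 (SE, edgeR, FDR = 0.57). *Rgs19* (ENSMUSG00000002458.13, chr2:181688419-181693977, minus strand), the member of the RZ family, encodes a protein with a cysteine string, which binds subunits of the Gi class. It was at 1.87 to 2.50 CPM (median 2.13) in vehicle and 1.40 to 2.48 CPM (median 1.80) in SK-124 mice. Its groups overlapped too, with a log2 fold change of -0.15 ± 0.15 (SE, edgeR, FDR = 0.53). With SK-124 mice 1 to 3 alone the log2 fold change of *Rgs19* was -0.39 (edgeR, FDR = 0.15). With mice 4 to 6 alone it was 0.05 (edgeR, FDR = 0.87), on the other side of 0.

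*Rgs14*, *Rgs1* and *Rgs16* had 2 to 13, 1 to 18 and 2 to 8 estimated reads per mouse, so counting error is a large part of their values. They are given from a fit with no filter, in which 13.2% of 25286 genes had an FDR under 0.05. *Rgs14* (ENSMUSG00000052087.14, chr13:55369732-55384687, plus strand) encodes an R12 protein with Ras-binding and GoLoco domains. Its lowest, median and highest reads were 6, 12 and 13 in vehicle mice and 2, 4 and 7 in SK-124 mice. The groups overlapped by 1 SK-124 mouse, and the other 5 were below the lowest vehicle mouse. *Rgs14* fell by 1.16 ± 0.36 on the log2 scale (SE, edgeR with no filter, FDR = 0.028; exact permutation p = 0.0108 unadjusted). The call was lost in 7 of the 12 fits that left out 1 mouse, with an FDR of up to 0.071 in edgeR. These were the fits without vehicle mouse 1, 3, 4 or 5 or SK-124 mouse 3, 4 or 5, with log2 fold changes from -1.13 to -1.04.

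*Rgs1* (ENSMUSG00000026358.13, chr1:144242296-144249242, minus strand) encodes an R4 protein that dampens chemokine signalling in activated lymphocytes. Its lowest, median and highest reads were 1, 2 and 5 in vehicle mice and 3, 6.5 and 18 in SK-124 mice. In CPM 4 of 6 SK-124 mice were above the highest vehicle mouse. The log2 fold change was 1.65 ± 0.49 (SE, edgeR with no filter, FDR = 0.022; exact permutation p = 0.0130 unadjusted). Without SK-124 mouse 6, which had the 18 reads, it was 1.23 and no longer passed (edgeR, FDR = 0.11), and without vehicle mouse 4 it was 1.498 (edgeR, FDR = 0.052). *Rgs16* (ENSMUSG00000026475.7, chr1:153740349-153745468, plus strand), a further R4 gene with roles in liver and lymphocytes, had 2, 2.5 and 7 reads (lowest, median, highest) in vehicle and 2, 4 and 8 in SK-124 mice. Its groups overlapped, with a log2 fold change of 0.47 ± 0.45 (SE, edgeR with no filter, FDR = 0.52).

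Markers of immune cells were read beside *Rgs1*, *Rgs14*, *Rgs10* and *Rgs19*. Of 7 B cell markers, 3 passed the filter and all 3 were lower at an FDR under 0.05 (edgeR). DESeq2 tested 6 and called 0 higher and 5 lower. The summed level of the 7 was 7.50 to 16.8 CPM in vehicle and 1.80 to 3.61 CPM in SK-124 mice, without overlap. None of the 7 was at 0 in all mice. Of 5 pan-leukocyte markers, all tested, 0 were called by edgeR or DESeq2 and 1 was lower at an unadjusted p under 0.05 (edgeR), at 19.5 to 28.3 against 19.4 to 24.4 CPM summed. Of 8 T and NK cell markers 2 were tested and 0 called (edgeR and DESeq2, also 0 at an unadjusted p under 0.05), at 2.58 to 4.39 against 2.05 to 3.45 CPM summed. Of 9 macrophage markers 1 was higher and 1 lower (2 and 1 with DESeq2), at 74.0 to 94.8 against 78.6 to 98.1 CPM summed. The shares over all genes tested with edgeR were 10.8% higher and 13.5% lower, and these lists were not tested against them. The part of B cells in the values of *Rgs14* and *Rgs1* was not tested.

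**Figure D3:**
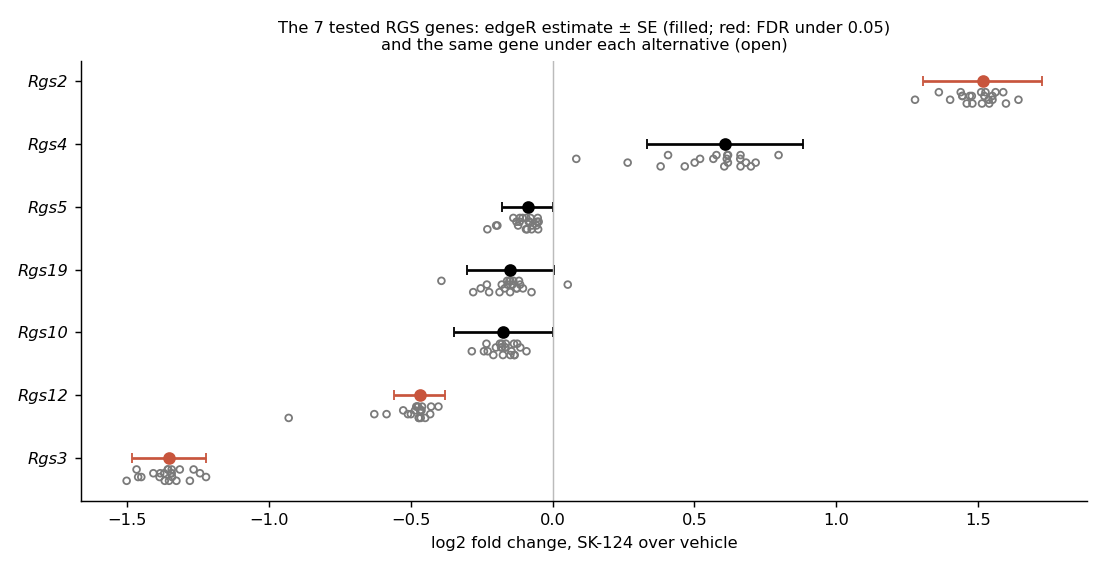
Log2 fold change of SK-124 over vehicle (x axis) for the 7 tested RGS genes, as the edgeR estimate with its SE (filled, red where the FDR is under 0.05) and under each alternative setting (open). *Rgs2* stays between 1.28 and 1.64, *Rgs3* between -1.50 and -1.22 and *Rgs12* between -0.93 and -0.40, while *Rgs19* reaches 0.05 in 1 setting.

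Beyond the 10, the annotation holds 12 further RGS genes that were looked up by symbol. Of these 3 were tested, all of the R7 family, whose proteins pair with the beta subunit Gnb5, and 0 were called (edgeR, also 0 at an unadjusted p under 0.05, and 0 of 5 with DESeq2). *Rgs6* had a log2 fold change of -0.05 ± 0.10, *Rgs11* of -0.09 ± 0.10 and *Rgs9* of 0.32 ± 0.24 (SE). *Rgs8*, *Rgs21* and *Rgs22* had 0 reads in all 12 mice, which allows up to 3 reads or 0.142 to 0.175 CPM per library, a limit for counting error only. The other 6 had at most 9 reads in any mouse.

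The genes whose variation among mice was most like that of *Rgs2* and *Rgs3* were found as the highest Pearson correlation of log2(CPM + 0.5) over the 12 mice, after each group's mean was taken away, among 13008 genes with at least 1 CPM. For *Rgs2* they were *Slco4a1* (r = 0.91, rho = 0.95), an organic anion transporter gene, *Zc3h12a* (r = 0.91, rho = 0.89), which encodes an RNase that degrades inflammatory mRNAs, and *Emp1* (r = 0.90, rho = 0.91), an epithelial membrane protein gene. Their own log2 fold changes were 0.71 (FDR = 0.0066), 0.54 (FDR = 0.011) and 0.38 (FDR = 0.25) by edgeR. For *Rgs3* they were *9030025P20Rik* (r = 0.89, rho = 0.92), *Epb41l4a* (r = 0.89, rho = 0.77) and *Kctd6* (r = 0.88, rho = 0.86). These had log2 fold changes of -0.39 (FDR = 0.016), -0.46 (FDR = 0.00085) and -0.01 (FDR = 0.94) by edgeR. All points share their libraries, and the genes were picked for their correlation, so the values are a description.

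The partners of RGS proteins in the pathway moved in both directions. Of 118 further genes in 8 lists, from RGS genes and G protein subunits to receptors, 92 were tested, 14 were higher and 25 lower at an FDR under 0.05 (edgeR), with a median log2 fold change of -0.04. Among all genes tested the shares were 10.8% higher and 13.5% lower, and the counts of each list and class below stand beside the same shares, with no test of the difference. Scaling by library totals alone gave 8 higher and 32 lower. Of 12 tested alpha subunit genes 3 were higher and 4 lower. By class, 1 was higher and 1 lower of 5 in the Gi class with Go and Gz, 0 and 2 of 3 in the Gq class, 1 and 1 of 2 in the G12/13 class, and 1 and 0 of 2 in the Gs class. The Gs gene called was *Gnal*, with a mean of 0.916 CPM in vehicle and 1.36 CPM in SK-124 mice (edgeR, FDR = 0.0496). The other, *Gnas*, had means of 508 and 532 CPM and a log2 fold change of 0.07 (edgeR, FDR = 0.37). Of 13 alpha subunit genes tested with DESeq2, 2 were higher and 4 lower, and *Gnal* was not called. The largest change was in *Gnaz*, the Gz subunit, a substrate of the RZ family, at 3.32 to 4.94 CPM in vehicle and 1.62 to 2.20 CPM in SK-124 mice, without overlap (log2 fold change -1.01 ± 0.13, SE; edgeR, FDR = 2.1e-05). The Gq-class genes *Gnaq*, *Gna11* and *Gna14* had log2 fold changes of 0.06, -0.19 and -0.41, of which the latter pair passed (edgeR, FDR = 0.53, 0.016 and 0.0041).

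Of 11 tested beta and gamma subunit genes, only *Gng11* was called, with a log2 fold change of -0.69 ± 0.13 (SE, edgeR, FDR = 0.0010). Among 10 tested partners and proteins with RGS-like domains 1 was lower, *Arhgef1* at -0.18 (edgeR, FDR = 0.030), named after its value was seen. Of 7 receptor kinases and arrestins, which quench receptors as RGS proteins quench G proteins, 1 was higher (*Grk5*) and 2 lower (*Arrb1* and *Arrb2*). Of 6 tested genes for GoLoco proteins and exchange factors, 2 were higher and 1 lower, with *Gpsm1* at 0.85 ± 0.16 (log2 fold change, SE; edgeR, FDR = 0.00076). Of 11 adenylyl cyclase and phospholipase C beta genes 0 were higher and 5 lower (1 higher at an unadjusted p under 0.05, and 0 with DESeq2), with a median log2 fold change of -0.39. The 5 were *Adcy3*, *Adcy5*, *Adcy9*, *Plcb2* and *Plcb3*, with *Adcy3* at -0.80 ± 0.23 (SE, edgeR, FDR = 0.018). The summed level of the 13 effector genes in the list overlapped, at 115.5 to 153.6 CPM in vehicle and 123.6 to 140.3 CPM in SK-124 mice. *Adcy6*, with the highest mean CPM of them, had a log2 fold change of 0.04 (edgeR, FDR = 0.74).

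Of 40 receptor genes 32 were tested, 8 were higher and 11 lower, with a median log2 fold change of -0.12. The named receptors that rose were *S1pr1* (1.42, sphingosine 1-phosphate), *Ednrb* (1.33, endothelin), *Bdkrb2* (1.21, bradykinin) and *F2r* (1.01, thrombin), all as log2 fold changes. Those that fell were *Cx3cr1* (-2.10, fractalkine), *Ptger1* (-1.29, prostaglandin E2), *Avpr2* (-1.17, vasopressin) and *Tbxa2r* (-1.15, thromboxane). By the G protein class that each receptor is best known for, Gi-coupled receptors had 4 higher and 2 lower of 10 tested, Gq-coupled 4 and 5 of 14, and Gs-coupled 0 and 4 of 8. Not among the Gs-coupled receptors called was *Pth1r*, the receptor of parathyroid hormone. It was at 291.0 to 353.0 CPM in vehicle and 270.3 to 319.0 CPM in SK-124 mice. Its log2 fold change was -0.12 (edgeR, FDR = 0.17). The receptor classes were not tested against each other.

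**Figure D4:**
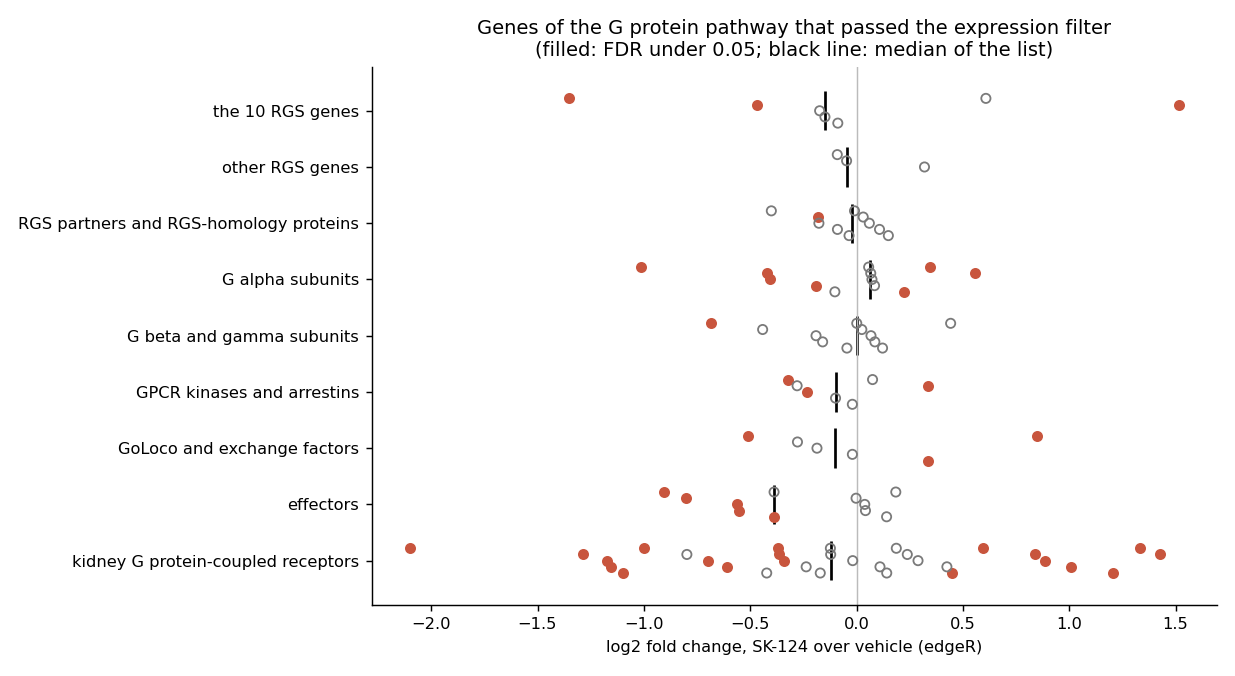
Log2 fold change of SK-124 over vehicle (x axis) for each tested gene of the G protein pathway, by list (y axis), filled red where the edgeR FDR is under 0.05 and open otherwise, with the list's median as a black line. *Rgs2* at 1.52 and *Rgs3* at -1.35 are the ends of the RGS row, and the effectors have the lowest median, -0.39.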

How the data were processed

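Per the labels and the study's methods, RNA of 12 kidneys was sequenced on a BGISEQ-500. The submitters' processing notes name FastQC, STAR 2.7.2b, RSEM 1.3.0, DESeq2 and mm10; use of strand is not given in the sources used here. The authors deposited 1 RSEM table per mouse with expected counts (estimated reads, not normalized), TPM scaled per length and library, and gene lengths. Of 55401 identifiers, 54349 matched GENCODE M21 with their version.

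Expected counts were rounded, scaled by TMM, filtered with filterByExpr and tested with edgeR 4.0.16 (R 4.3.3), without a replicate block. SE is the log2 fold change over the square root of F. Lengths were tested with limma 3.58.1 on log2 values. Alternatives used DESeq2 1.42.0, limma on TPM, other scalings and filters, each mouse left out, and SK-124 mice 1 to 3 or 4 to 6. The edgeR, DESeq2 and limma tests were tested on simulated data. No 2 mice of a group looked like 1 library (smallest chi-square per degree of freedom 4.72). The p-values set the difference between groups against the spread between mice. The number of mice sets the smallest exact permutation p, 0.00216.

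The RGS genes and all gene lists were chosen with earlier results of these data known. Pathway genes were named if past an FDR of 0.05, with a log2 change over 0.585 and a mean of at least 1 CPM, up to 4 per direction and list; others were named after their values were seen. FPKM was not used here. Overlapping antisense genes of *Rgs3*, *Rgs12* and *Rgs16* had at most 1 read in any mouse.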

Additional observations from a re-analysis of the deposited data

Results flagged for a closer look

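The level of *Rgs1* in SK-124 mouse 6, 0.912 CPM, stood apart from the other SK-124 mice. The gap to the next mouse was 0.687 of the whole range of the group, above the limit of 0.625 that Dixon's test sets for 6 samples. This was 1 of 20 values of the 10 genes and both groups that were looked at, and chance alone flags about 1 in 20. The mouse had 18 reads of *Rgs1*, and its part in the *Rgs1* fold change is the value without it, 1.23 in place of 1.65 on the log2 scale.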

How the results depend on the processing

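*Rgs2*, *Rgs3* and *Rgs12* kept their direction and an FDR under 0.05 in all 22 alternatives each. Their groups did not overlap, so the direction was fixed in advance in the fits that left out mice. The number of RGS genes higher at an FDR under 0.05 went from 1 to 2 with DESeq2 and with no filter on low counts, *Rgs1* being added in both; with each mouse left out it was 1 throughout. The number lower was 2, and 3 with DESeq2, with no filter and with SK-124 mice 4 to 6 alone. *Rgs19* turned to a log2 fold change of 0.0535 with SK-124 mice 4 to 6 alone (edgeR, FDR = 0.87). For the other pathway lists the 14 higher genes became 8 with library totals and 7 with limma on log2(TPM + 1) or log2(TPM + 0.1). The 25 lower genes became 15 with SK-124 mice 1 to 3 alone and 14 at an FDR under 0.01. With each mouse left out the ranges were 10 to 14 higher and 20 to 25 lower. The cause was not tested. Library totals moved the median of all genes to -0.12 and the TPM fits to -0.11 and -0.14, and under library totals 777 genes were higher and 3058 lower, against 1536 and 1917. The number of RGS genes with a changed length was 0 in all 17 alternatives. With the replicate number as a block, *Rgs2* was at 1.47, *Rgs3* at -1.37 and *Rgs12* at -0.47, the counts of RGS genes stayed 1 and 2, and those of the lists were 13 and 24. The numbers did not pair the mice: same-numbered mice correlated at -0.11 to 0.17, over 0.1 in 2 of 6 pairs, and 2 of 6 mice correlated best with their own number. Depth limits *Rgs1*, *Rgs14* and *Rgs16* most.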
